A study of Arabidopsis thaliana with 9 samples.

Results

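In the oscillation zone of the Arabidopsis thaliana root, 64 of 31124 loci (0.206%) had a high value in the potent line while their value in the arf7 line stayed near that of the control. They were chosen from the deposited expression values themselves. A locus was taken if it had at least 10 FPKM in potent (fragments per kilobase, a level scaled for transcript length and library total) and was above 0 in the control and in arf7. Its log2((potent + 1)/(Control + 1)) had to be at least 1.5 and its log2((arf7 + 1)/(Control + 1)) between -0.4 and 0.4. The height in potent and the closeness of arf7 to the control are therefore properties of the choice. They are described below and not tested.

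Total RNA was profiled from hand-dissected zones at 7 dpi in 3 groups of 3 independent samples. The control was Col0, labelled WT and taken when the oscillation of its DR5::Luciferase signal was at a minimum. The potent and arf7 groups carry those genotype names with no ecotype, allele or phase of the oscillation given, so genotype and phase cannot be told apart, and the protocol shared by all samples followed DR5::Luciferase, a luciferase reporter of auxin response. The deposited table holds 1 value per genotype, so no spread between samples was available, and both mutants were set against the same control samples.

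The zone lies behind the root tip, and in it the auxin response rises and falls periodically while sites of future lateral roots are set. Auxin acts by removing Aux/IAA repressors from auxin response factors (ARFs), which then regulate genes from elements with a TGTC core. The potent line is known for a gain-of-function change in IAA18, an Aux/IAA protein, and ARF7 is an activating factor needed for lateral root initiation. IAA18 itself had 10.6 FPKM in the Control column, 21.8 in potent and 19.1 in arf7, and ARF7 had 12.0, 9.35 and 2.64 FPKM. The authors' deposited table lists neither gene as differing in either mutant.

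The pattern was uncommon among loci that were high in potent. Of 8802 loci with at least 10 FPKM in potent and a value above 0 elsewhere, 1258 (14.3%) passed the potent ratio. In arf7, 1175 of these 1258 (93.4%) lay above 0.4 on the same log2 scale, 64 (5.09%) lay within 0.4 of the control and 19 (1.51%) lay below -0.4. Among all 8802 loci the share within 0.4 in arf7 was 37.4%. Both ratios hold the same control value, so they are not independent of each other.

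**Figure D1:**
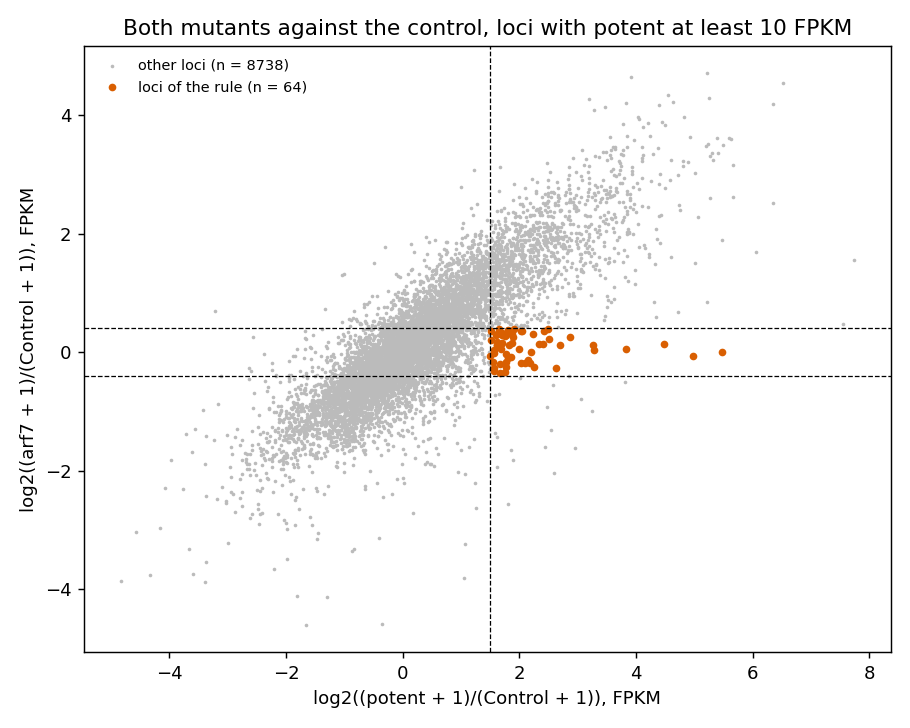
Each point is a locus with at least 10 FPKM in potent and a value above 0 in the other genotypes, placed by log2((potent + 1)/(Control + 1)) on the horizontal axis and log2((arf7 + 1)/(Control + 1)) on the vertical axis, with the bounds of the rule as dashed lines. The 64 chosen loci (orange) occupy the band between -0.4 and 0.4 to the right of 1.5, while most other loci past 1.5 lie above that band.

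**Figure D2:**
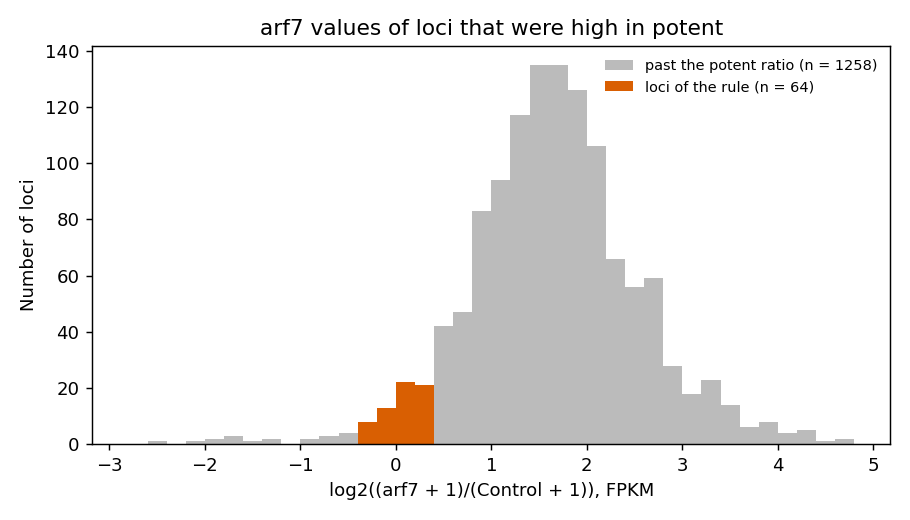
The histogram counts the 1258 loci past the potent ratio by log2((arf7 + 1)/(Control + 1)), in bins of the same width. The 64 chosen loci (orange) fill the bins between -0.4 and 0.4, left of the bulk of the distribution.

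The 64 loci had a median of 6.26 FPKM in the control (0.00985 to 348), 31.5 in potent (10.0 to 1662) and 7.64 in arf7 (0.0132 to 293). The fold of potent over control had a median of 4.05 with quartiles of 3.55 and 4.87, and the fold of arf7 over control ran from 0.619 to 1.52 with a median of 1.103. In arf7, 43 of the 64 lay above the control and 21 below it. The other 1194 loci past the potent ratio had a median fold over control of 3.73 in arf7, so they were a median of 1.58-fold higher in potent than in arf7, against 3.93-fold for the chosen loci. Added up, the 64 loci made 1247 FPKM (0.138% of the table's sum) in Control, 5341 (0.607%) in potent and 1235 (0.145%) in arf7.

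The authors' deposited table lists 15 of the 64 loci (23.4%) as higher in potent and the other 49 in neither direction. There, 38.2% of all 1258 loci past the potent ratio are listed as higher, 6.16% of the 8802 and 3.44% of the 21486 loci above 0 in the control or potent. None of the 64 is listed in arf7, where 2.02% of loci above 0 in either genotype are listed as higher and 2.55% as lower. The comparison table gives q-values for listed loci only, so no p-value stands behind an unlisted locus. Of the 15 listed loci, 14 had at least 5 FPKM in the control, as did 37 of the 64. In the text below, "rose" is kept for loci that the authors' deposited table lists, and unlisted loci are given by their values.

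**Figure D3:**
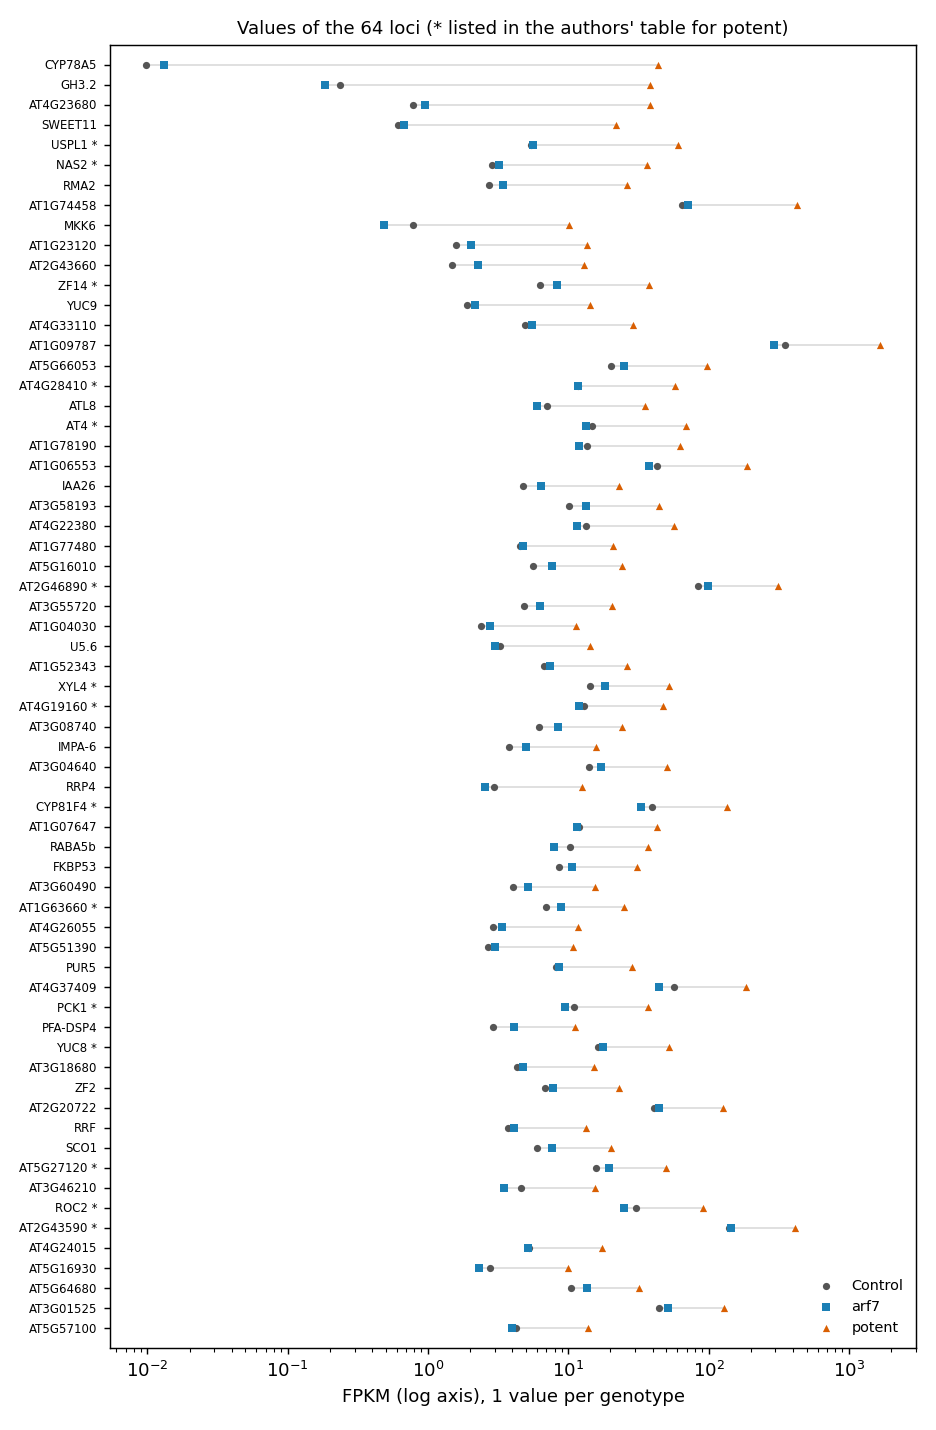
Each row is 1 of the 64 loci, ordered by log2((potent + 1)/(Control + 1)), with its FPKM in the control (grey circle), arf7 (blue square) and potent (orange triangle) on a log axis, 1 value per genotype without error. The potent values lie apart to the right and the control and arf7 values lie close together, from CYP78A5 at the top (0.00985, 0.0132 and 43.7 FPKM) to AT5G57100 at the bottom (4.25, 4.00 and 13.9 FPKM).

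Genes that make, inactivate and respond to auxin were among the 64. Of genes with at least 10 FPKM in potent and above 0 elsewhere, 3 of 23 in auxin conjugation, oxidation and synthesis were members. In auxin response 1 of 25 was, against 64 of 8802 loci in all, and these shares were not tested. GH3.2 (AT4G37390, BRU6 in the annotation), an enzyme that joins amino acids to auxin and so lowers its active pool, had 0.238 FPKM in Control, 38.1 in potent and 0.186 in arf7. YUC8 (AT4G28720), a flavin monooxygenase of the last step of auxin synthesis, had 16.3, 52.5 and 17.8 FPKM in that order, which is kept for all values below. The authors' deposited table lists YUC8 as higher in potent with a log2 fold change of 1.69 (q = 0.00861). Its relative YUC9 (AT1G04180) had 1.90, 14.3 and 2.17 FPKM and is not listed. IAA26 (AT3G16500, PAP1 in the annotation), an Aux/IAA repressor, had 4.79, 23.0 and 6.42 FPKM and is not listed, with a log2 ratio of 0.36 in arf7, near the upper bound. That this auxin-inactivating enzyme, pair of auxin-making enzymes and repressor stood higher in potent than in arf7 follows from the rule. Of them YUC8 alone is listed.

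The stretch before the GH3.2 start is shown because it holds a full auxin response element, TGTCTC (capitals), at bases -144 to -139. It is the 250 bases at chr4:17579368-17579617 on the plus strand, from RefSeq's TAIR10.1, and no other annotated gene lies in it.
GH3.2 upstream: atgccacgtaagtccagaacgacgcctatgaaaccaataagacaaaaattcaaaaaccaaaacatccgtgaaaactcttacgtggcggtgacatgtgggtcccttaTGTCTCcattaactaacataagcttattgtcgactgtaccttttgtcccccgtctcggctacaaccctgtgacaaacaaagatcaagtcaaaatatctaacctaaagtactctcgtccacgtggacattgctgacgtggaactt

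That element was about as frequent before the 64 loci as before other loci. TGTCTC or its reverse complement GAGACA occurred in the 250 bases before 7 of the 64 (10.9%), against 9.93% of 8723 loci with at least 10 FPKM in potent and above 0 elsewhere and 10.9% of 30548 loci in all. Among the 15 listed loci XYL4 alone held it (6.67%), as GAGACA at -63 to -58. TGTCGG or its reverse complement stood before 3 of the 64 (4.69%, against 5% and 4.1%), those of MKK6, AT4G22380 and AT3G04640. The core TGTC, which both of those contain, was found before 50 of the 64 (78.1%, against 75.1% and 74.9%). The G-box CACGTG was found before 4.69% of the 64 (against 6.81% and 6%), ACGTG, which lies within it, before 17.2% (against 23.8% and 22%), and the W-box TTGACC or TTGACT before 25% (against 28.4% and 27.9%). All motifs were read on both strands, and a match describes the letters in this window only.

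Other genes of the same pathways did not share the pattern uniformly. The list of auxin conjugation, oxidation and synthesis genes had 34 members above 0. The authors' deposited table lists 5 of them as higher and 3 as lower in potent, and 1 as higher and 2 as lower in arf7, and the list's median log2 ratio was 0.60 for potent and 0.22 for arf7, against 0 for all loci. Of the other GH3 genes, GH3.1, GH3.5 (WES1) and GH3.6 (DFL1) are listed as higher in potent in the authors' deposited table. GH3.1 had 0.536, 29.5 and 1.74 FPKM in control, potent and arf7, GH3.5 had 2.86, 71.3 and 10.7 FPKM, and GH3.6 had 2.28, 26.1 and 8.84 FPKM. All 3 stood above the control in arf7, but none of them is listed there. GH3.2 had a fold of 0.782 in arf7, which compares low values of 0.186 and 0.238 FPKM. GH3.3 had 0.385 FPKM in Control and 5.79 in potent and is listed at 0 in arf7, so like GH3.2 it was highest in potent and not above the control in arf7. GH3.17 went the other way, with 20.8, 11.2 and 12.9 FPKM, and GH3.4 and GH3.9 are listed at 0 in all genotypes. Among the YUC genes, YUC3 had 13.2, 0.992 and 17.1 FPKM and the authors' deposited table lists it as lower in potent (log2 fold change -3.74, q = 0.00861), opposite to YUC8. YUC5 had 1.38, 6.35 and 4.35 FPKM and YUC6 had 1.22, 1.01 and 3.57 FPKM. TAA1, the aminotransferase that feeds the YUC step, had 10.9, 0.464 and 0.349 FPKM and is not listed.

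The list of auxin response genes had 51 members above 0, with IAA26 the single one among the 64. The authors' deposited table lists 2 of the 51 as higher and 3 as lower in potent, and 1 as higher and 2 as lower in arf7, and the median log2 ratio was 0.14 for potent and 0.07 for arf7. The 51 include AT3G10520, a haemoglobin gene that the symbol HB2 matched and not an auxin response gene. It is 1 of the 3 listed as lower in potent and is not listed in arf7. IAA11 had 6.78, 38.1 and 11.1 FPKM, IAA31 had 5.24, 32.4 and 8.66 FPKM and IAA27 (PAP2) had 0.479, 30.7 and 6.33 FPKM. These 3 Aux/IAA genes were higher in potent than in arf7, as IAA26 was, but their arf7 ratios lay above 0.4. None of the 27 auxin transport genes above 0 was among the 64.

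**Figure D4:**
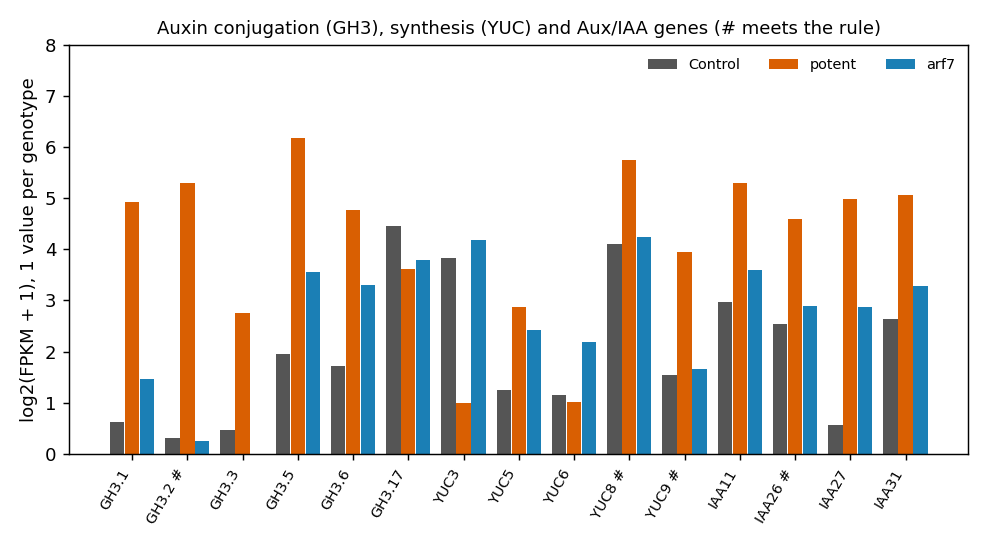
Bars give log2(FPKM + 1) of 15 GH3, YUC and Aux/IAA genes in the control (grey), potent (orange) and arf7 (blue), 1 value per genotype without error, with # on the 4 genes that meet the rule. In GH3.2, YUC8, YUC9 and IAA26 the grey and blue bars are close in height and the orange bar is taller. In GH3.5, GH3.6 and IAA27 the blue bar stands between the grey and the orange ones.

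The largest potent ratio belonged to CYP78A5 (AT1G13710, also known as KLUH), a cytochrome P450 that promotes organ growth through a mobile signal, with 0.00985 FPKM in Control, 43.7 in potent and 0.0132 in arf7. It is close to absent in the control and in arf7, so its fold of 4433 rests on a very small control value, and it is not listed. AT4G23680, of a family of polyketide cyclase and lipid transport proteins, followed GH3.2 with 0.780, 38.6 and 0.947 FPKM. SWEET11 (AT3G48740), a sucrose exporter known from phloem loading, had 0.615, 21.8 and 0.675 FPKM. These 4 genes lay 35.5-fold or more above the control in potent and below 1 FPKM in both other genotypes, and none of them is listed. The next of the 64 in that order were 11.3-fold and 12.7-fold up and were listed.

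SWEET11 differed in its listing from its relative SWEET12, which stands at 0 in the control column, had 34.1 FPKM in potent and 0.841 in arf7, and rose in potent in the authors' deposited table. Values of the wider phloem list differed from that pattern. Of 29 phloem genes above 0, the authors' deposited table lists 4 as higher in potent and 3 as higher in arf7, with list medians of 0.71 and 0.62 on the log2 scale. The companion cell sucrose carrier SUC2 had 9.57, 10.2 and 12.4 FPKM, the phloem regulator APL had 4.90, 12.6 and 20.9 FPKM, and the sieve element protein gene SEOR1 had 0.0118, 12.9 and 13.6 FPKM. APL and SEOR1 were thus as high in arf7 as in potent or higher. Other genes of the list were higher in potent than in arf7, as SWEET11 was: PP2-A1 had 1.75, 46.4 and 24.6 FPKM, CVP2 had 1.28, 11.3 and 5.27 FPKM, FTIP1 had 5.51, 29.6 and 17.8 FPKM and GAMMA-VPE had 20.11, 64.1 and 40.5 FPKM. In arf7 these 4 also lay above the control, with log2 ratios from 0.97 to 3.22, against 0.05 for SWEET11, which the rule holds within 0.4. The authors' deposited table lists CVP2, FTIP1 and GAMMA-VPE as higher in potent and FTIP1 as higher in arf7 too.

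USPL1 (AT1G49320), a BURP domain protein described from seed storage vacuoles, rose from 5.41 to 60.9 FPKM in potent, with 5.59 in arf7 (log2 fold change 3.49, q = 0.00145 in the authors' deposited table). NAS2 (AT5G56080), a nicotianamine synthase that makes a chelator of iron and zinc, rose from 2.86 to 36.2 FPKM, with 3.22 in arf7 (log2 fold change 3.66, q = 0.00145 in the authors' deposited table). A MATE efflux transporter (AT1G58340, ZF14) described for the rate of organ initiation and for iron homeostasis rose from 6.28 to 37.9 FPKM, with 8.28 in arf7 (log2 fold change 2.59, q = 0.00145 in the same authors' deposited table). NAS2 was the single listed locus of the 64 with a control value under 5 FPKM. Its relatives differed from it in arf7: NAS4 had 4.63, 33.4 and 31.0 FPKM and rose in both mutants in the authors' deposited table. NAS1, listed at 0 in the control, had 1.39 FPKM in potent and 1.16 in arf7 and is also listed as higher in both. The iron and zinc transporter gene IRT2 had 2.56, 85.2 and 9.85 FPKM and is listed as higher in potent.

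Unlisted loci filled the rest of the 12 largest ratios. RMA2 (AT4G28270), a membrane-anchored RING ubiquitin ligase, had 2.72, 26.1 and 3.41 FPKM. MKK6 (AT5G56580), a MAP kinase kinase that works in cytokinesis, had 0.781, 10.1 and 0.483 FPKM. AT1G74458, a short uncharacterised protein gene, had 65.1, 429 and 70.8 FPKM and was the second highest of the 64 in potent. AT1G23120, from the same polyketide cyclase and lipid transport family as AT4G23680, had 1.58, 13.7 and 2.01 FPKM. AT2G43660, with a carbohydrate-binding X8 domain, had 1.49, 13.05 and 2.26 FPKM, and its arf7 fold of 1.52 was the highest of the 64, while that of MKK6 (0.619) was the lowest.

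A gene of the phosphate starvation response among the 64 was AT4 (AT5G03545), a mostly noncoding RNA that binds the microRNA miR399 without being cut, as IPS1 does, and so protects the miR399 target PHO2. AT4 rose from 14.8 to 69.4 FPKM in potent, with 13.5 in arf7 (log2 fold change 2.23, q = 0.00145 in the authors' deposited table). Its miR399 site is shown because it is the functional part of the RNA. The site is at chr5:895149-895172 on the plus strand (RefSeq TAIR10.1). In the site, capitals mark the 18 bases that pair with miR399b, out of 21, around an unpaired insert of 3 bases. In the microRNA, written as DNA, capitals mark the seed, which miR399a, miR399b, miR399c-3p, miR399d, miR399e and miR399f share in RefSeq.
AT4 site: ttGGGCAACTtcgaTCCTTTGGCA
miR399b: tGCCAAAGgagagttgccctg

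Mature miR399c-3p has the same letters as miR399b, and the microRNAs themselves were not analysed here. IPS1 had 0.378, 6.21 and 1.25 FPKM and is not listed. PHO2, a ubiquitin-conjugating enzyme that limits phosphate transporters, had 1.99, 4.30 and 12.6 FPKM, and the authors' deposited table lists it as higher in arf7 (log2 fold change 2.66, q = 0.00145). The phosphate transporter gene PHT1;1 had 62.1, 319 and 154 FPKM and is listed as higher in potent. The acid phosphatase gene PAP17 had 2.07, 23.2 and 7.14 FPKM and SPX1, a phosphate sensor gene, had 30.0, 34.1 and 17.7 FPKM, both unlisted. Of 48 phosphate, sulfate and iron genes above 0, AT4 and NAS2 were the members, and the authors' deposited table lists 8 as higher in potent and 3 as higher in arf7, with list medians of 0.36 and 0.26. AT4 and NAS2 thus lay within 0.4 of the control in arf7, whereas the log2 ratios of IPS1, PHT1;1 and PAP17 there were 0.71, 1.29 and 1.40.

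A pair of overlapping loci and GH3.2 lay close together on chromosome 4. CYP81F4 (AT4G37410), a cytochrome P450 that modifies indole glucosinolates, rose from 39.2 to 136 FPKM in potent, with 32.9 in arf7 (log2 fold change 1.79, q = 0.00269 in the authors' deposited table). AT4G37409, an uncharacterised locus on the opposite strand, overlaps it over 2140 bp (99.9% of its own length) and had 56.9, 184 and 44.1 FPKM. The library protocol named in the labels does not mark strand, so reads of these loci cannot be told apart, and the pair may count the same transcripts. GH3.2 ends 8749 bp before CYP81F4. CYP81F3, which lies between them, had 41.2, 3.495 and 7.47 FPKM and fell in both mutants in the authors' deposited table. On the other side CYP81F1 (CYP91A2) had 2.02, 9.40 and 2.38 FPKM, a like pattern under the minimum of 10 FPKM in potent. The values along this stretch therefore differed in direction from gene to gene.

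CYP81F4 was the single glucosinolate or triterpene gene of the 64, from 43 above 0, of which the authors' deposited table lists 16 as higher and 3 as lower in potent and 9 as higher and 3 as lower in arf7. On the log2 scale the list medians were 2.24 for potent and 1.58 for arf7. IGMT5, a methyltransferase of the same indole branch, had 8.63, 197 and 35.1 FPKM, and CYP83B1, an early enzyme of it, had 12.3, 154 and 83.3 FPKM, both listed as higher in both mutants. CYP81F4 was thus below the control in arf7 where these partners were above it. Among genes that could meet the rule, 1 of 28 in this list was a member, as were 1 of 9 in phloem and 2 of 24 in phosphate, sulfate and iron. Of the 27 gene lists 22 held none of the 64 loci. With 64 loci among the 8802 that could meet the rule, and 33 such genes in the root hair list, 21 in xylem and secondary wall, 25 in nitrate, 18 in endodermis, 12 in lateral root initiation and 11 in cell cycle, a count of 0 in a list says nothing particular about it.

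Noncoding RNAs by annotated biotype made up 7 of the 64 loci (10.9%), against 282 of the 8802 (3.2%). Their share among the 1258 loci past the potent ratio was not counted. AT4 is annotated as protein-coding and is not among the 7. These were 4 small nucleolar RNAs (snoRNAs), which guide chemical changes in other RNAs, the spliceosomal RNA U5.6, and 2 antisense RNAs. None of the 7 is listed in potent. The snoRNA AT1G09787 (snoR76) had the highest value of the 64 in every genotype, with 348 FPKM in Control, 1662 in potent and 293 in arf7. AT1G06553 (snoR86-2) had 43.1, 188 and 37.6 FPKM, AT2G20722 had 40.8, 128 and 44.1 FPKM, and AT3G58193 had 10.2, 44.7 and 13.4 FPKM. U5.6 (AT1G04263), which has near-identical copies elsewhere in the genome, had 3.25, 14.4 and 3.03 FPKM. The snoRNAs are 66 to 142 bases long and the scaling by length weighs most on such short loci, so their FPKM are uncertain, and the part of length in these values was not tested. The libraries were made by a low-input full-length cDNA protocol, and how well it captures such short RNAs was not tested. The values of these loci and of U5.6 may therefore not be levels of the mature RNAs.

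The sequences of AT2G20722 and AT3G58193 are shown because they carry the boxes that define C/D snoRNAs, which guide methylation of ribose. Capitals mark the C box (ATGATGA) near the start and the D box (CTGA) near the end. AT3G58193 is 80 bases at chr3:21559060-21559139 on the plus strand and AT2G20722 is 75 bases at chr2:8931708-8931782 on the minus strand (RefSeq TAIR10.1). In U5.6, 101 bases at chr1:1215731-1215831 on the minus strand, capitals mark the loop that aligns exons (CTTTTAC) and the site for the Sm ring (ATTTTTG).
AT3G58193: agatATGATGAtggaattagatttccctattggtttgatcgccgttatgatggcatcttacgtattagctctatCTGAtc
AT2G20722: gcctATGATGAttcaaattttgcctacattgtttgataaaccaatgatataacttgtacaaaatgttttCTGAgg
U5.6: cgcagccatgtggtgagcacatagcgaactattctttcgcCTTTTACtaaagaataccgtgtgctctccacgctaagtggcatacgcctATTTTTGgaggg

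Neighbouring snoRNAs on the same strand did not all move with these. AT2G20722 lies 52 bp from AT2G20721, which had 81.5, 23.8 and 27.6 FPKM, and 66 bp from AT2G20723, which stands at 0 in Control and arf7 and had 39.9 FPKM in potent. AT1G06553 lies 90 bp from the snoRNA AT1G32385, which had 231, 638 and 206 FPKM and so resembled it. AT3G58193 lies 104 bp from AT3G58196, which had 37.0 FPKM in the control, is listed at 0 in potent and had 171 in arf7. It lies wholly inside the long noncoding RNA AT3G09105 on the same strand, which was not analysed here. Within 1 stretch, then, adjacent small RNAs had different orders of the 3 genotypes.

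Both antisense RNAs overlap a protein-coding gene over their whole length, and without strand their reads cannot be told from it. AT3G01525 had 44.5, 128 and 51.2 FPKM and its partner DRT102 had 80.8, 149 and 91.1 FPKM, with the same order of genotypes. AT1G07647 had 11.8, 42.6 and 11.6 FPKM, while its partner CYP705A25 had 6.47, 12.7 and 12.1 FPKM and was as high in arf7 as in potent. Of the 64 loci 18 overlap another annotated gene, 15 of them on the opposite strand, and 2 of the 15 listed loci do (CYP81F4 and XYL4). AT5G66053, with 20.04, 97.5 and 24.9 FPKM, lies wholly inside AT5G66052, which had 4.98, 48.3 and 20.9 FPKM. AT1G04030, with 2.38, 11.3 and 2.76 FPKM, shares 531 bp with AT1G04040, whose order was the reverse at 1738, 162 and 877 FPKM.

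The other listed loci were enzymes and RNA or protein handling factors. AT2G43590, a chitinase family gene, rose from 140 to 416 FPKM in potent, with 144 in arf7 (log2 fold change 1.57, q = 0.00145 in the authors' deposited table). AT2G46890, of the steroid 5-alpha-reductase type, rose from 83.5 to 314 FPKM, with 99.5 in arf7 (log2 fold change 1.91, q = 0.00145 in the authors' deposited table). ROC2 (AT3G56070), a cyclophilin that turns proline bonds, rose from 30.3 to 91.5 FPKM, with 25.1 in arf7 (log2 fold change 1.60, q = 0.00269 in the authors' deposited table). These 3 were abundant in all genotypes, and their potent folds lay between 2.97 and 3.76, below the median of the 64.

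The remaining loci are given by the roles in their annotation, a sorting made after their values were seen. In central metabolism, PCK1 (AT4G37870), a cytosolic phosphoenolpyruvate carboxykinase that starts sugar synthesis from organic acids, rose from 11.1 to 37.2 FPKM in potent and had 9.45 in arf7 (q = 0.00145 in the authors' deposited table). A tyrosine transaminase family gene (AT4G28410) rose from 11.8 to 57.5 FPKM and had 11.8 in arf7 (q = 0.00145 in the authors' deposited table), the closest match of control and arf7 among the listed loci. AT1G63660, annotated as a GMP synthase of purine synthesis, rose from 6.94 to 24.9 FPKM and had 8.88 in arf7 (q = 0.00683 in the authors' deposited table). PUR5 (AT3G55010), an earlier enzyme of the same purine pathway, had 8.18, 28.4 and 8.54 FPKM and is not listed. XYL4 (AT5G64570), a wall xylosidase, rose from 14.3 to 52.4 FPKM and had 18.25 in arf7 (q = 0.00488 in the authors' deposited table), but shares 1436 bp with the antisense long noncoding RNA AT5G64572 (21.0, 59.1 and 28.1 FPKM).

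A few loci are annotated with roles in RNA processing or translation, and they are set side by side here without a claim on their share. A word search of the annotation put none of the 64 in the RNA binding or processing class (2.2% of the 8802). It missed RRP4 and AT5G27120, whose annotation names RNA processing, so that count is too low. The search put 2 in the ribosomal protein class (3.12%, against 3.06%), AT4G22380 and AT3G46210, by the name of their family or superfamily. These shares describe the search words and not the roles of the loci. AT5G27120, a NOP56-like protein of C/D snoRNA particles, rose from 15.8 to 49.9 FPKM in potent and had 19.5 in arf7 (log2 fold change 1.66, q = 0.00269 in the authors' deposited table). AT4G22380, of the L7Ae family of RNA-binding proteins, had 13.3, 57.0 and 11.6 FPKM. RRP4 (AT1G03360), a subunit of the RNA exosome, had 2.95, 12.4 and 2.53 FPKM, and AT1G78190, a Trm112-like partner of methyltransferases, had 13.6, 63.1 and 12.0 FPKM. FKBP53 (AT4G25340), a histone chaperone that binds ribosomal DNA, had 8.58, 31.1 and 10.6 FPKM. In plastid translation, the elongation factor SCO1 (AT1G62750) had 5.97, 20.3 and 7.61 FPKM and the recycling factor RRF (AT3G63190) had 3.70, 13.4 and 4.08 FPKM. AT5G27120 alone of these 7 is listed, and the control and arf7 values of all 7 lay within 0.4 by the rule.

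By words in the annotation, 1 of the 64 fell in the transcription factor class (1.56%, against 4.28% of the 8802), AT3G60490. The search left out ZF2, so that count is too low. It put 3 in the transporter or channel class (4.69%, against 4.23%), namely ZF14, AT5G16930 and AT5G57100. AT5G16930 is annotated only as an AAA-type ATPase, and the exporter SWEET11 was left out. These shares too describe the search words and not the roles of the loci. ZF2 (AT3G19580, also known as AZF2), a zinc-finger repressor induced by abscisic acid, had 6.81, 23.1 and 7.83 FPKM. AT3G60490, an AP2 domain factor of the DREB A-4 group, had 4.04, 15.5 and 5.16 FPKM. ATL8 (AT1G76410), a RING ubiquitin ligase, had 7.04, 35.5 and 6.04 FPKM. RABA5b (AT3G07410), a small GTPase of vesicle traffic, had 10.3, 37.0 and 7.96 FPKM, and the nuclear import receptor IMPA-6 (AT1G02690) had 3.81, 15.7 and 5.00 FPKM. AT4G19160, of the transglutaminase family, rose from 12.9 to 47.3 FPKM and had 11.9 in arf7 (q = 0.00145 in the authors' deposited table).

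Of the loci not yet described, none is listed. AT3G04640, a glycine-rich protein gene, had 13.97, 50.2 and 17.2 FPKM, and AT4G33110, of a methyltransferase superfamily, had 4.90, 28.8 and 5.495 FPKM. AT3G08740, of the elongation factor P family, had 6.24, 24.2 and 8.40 FPKM, and the aspartyl protease family gene AT1G77480 had 4.53, 20.9 and 4.74 FPKM. AT4G24015, a RING protein gene, had 5.25, 17.44 and 5.16 FPKM. The potent values of the others, AT1G52343 (26.3 FPKM), AT5G16010 (24.02), AT3G55720 (20.4), AT3G46210 (15.6), AT3G18680 (15.3), AT4G26055 (11.8) and PFA-DSP4 (11.2), lay in the lower part of the range, below the median of the 64, while AT5G64680 (31.9) lay just above it.

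The bounds cut through a continuous range of values. Just inside the potent ratio lay AT5G57100 (1.503), AT3G01525 (1.507) and AT5G64680 (1.515), and just outside it RTFL8 (1.498), AT2G29500 (1.492) and AT3G05355 (1.476), all on the log2 scale. At the upper arf7 bound AT2G43660 (0.39), AT5G16010 (0.39) and PFA-DSP4 (0.39) lay inside and AT5G52820 (0.41), AT1G59740 (0.42) and CXE12 (0.43) outside. At the lower arf7 bound AT4G37409 (-0.36), RABA5b (-0.33) and AT3G46210 (-0.32) lay inside and SQP2 (-0.40), AT1G64590 (-0.44) and AT2G15590 (-0.50) outside. At the minimum in potent AT5G16930 (10.0 FPKM), MKK6 (10.1) and AT5G51390 (10.9) lay inside and AT5G63087 (9.97), SWA1 (9.93) and AT3G49320 (9.71) outside. A further 23 loci met the ratios but are listed at 0 in the control or in arf7, for example the thioredoxin gene TH8 with 39.0 FPKM in potent and the snoRNA U60.1F with 111 FPKM, both at 0 elsewhere.

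The loci were spread over the chromosomes, with 19, 4, 15, 15 and 11 on chromosomes 1 to 5, against 2228, 1316, 1757, 1346 and 2078 of the 8802. Their median annotated length of 1745 bases was shorter than the 2160 of the 8802 and close to the 1688 of the other loci past the potent ratio. Besides the GH3.2 and CYP81F4 stretch, AT1G09787 and AT1G78190 were the loci of the 64 within 10 kb of another, 3300 bp apart.

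The dissected tissue held several cell types, and in such bulk samples more cells of a type and more RNA per cell cannot be told apart. Summed levels of marker genes differed between genotypes. Root hair markers (6 genes) summed to 446 FPKM in Control, 2263 in potent and 1345 in arf7, and endodermis markers (6 genes) to 2559, 7095 and 6544 FPKM. Xylem markers (6 genes) summed to 945, 1459 and 1625 FPKM, pericycle and stele markers (4 genes) to 27.8, 95.7 and 86.8, phloem markers (3 genes) to 14.5, 35.7 and 46.8, and green shoot markers (5 genes) to 19.4, 108 and 51.2 FPKM. All 6 sums were above the control in both mutants, but not every gene in them was. In the root hair list PRP3 alone had 1120 FPKM in potent, while RHD6 had 32.2, 6.29 and 10.9 FPKM and COBL9 had 73.3, 57.6 and 96.5 FPKM. The endodermis gene MYB36 had 83.1, 73.0 and 95.4 FPKM and the stele gene SHR had 19.3, 16.8 and 23.62 FPKM. CESA4 made up most of the xylem sum, with 852, 1020.3 and 1192 FPKM. The meristem genes PLT1 and PLT2 are listed at 0 in all genotypes, whereas WOX5, a gene of the stem cell niche, had 0.130, 8.18 and 0.767 FPKM. The root cap genes SMB and BRN1 are listed at 0 throughout and BRN2 had 0.139 FPKM in the control and is listed at 0 in both mutants. The part of tissue composition in the values of the 64 loci was not tested.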

How the data were processed

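RNA of 9 samples was sequenced by the authors from libraries made by a published low-input full-length cDNA protocol, per the labels' protocols. The tools Cufflinks, Cuffdiff, TopHat, TopHat2, Bowtie and Bowtie2 and the build TAIR10 are named, without versions or settings, per the submitters' processing notes. The deposited table holds 31124 loci with 1 value per genotype, the authors' combination of 3 samples. No unit stands in its header, and the deposited values were read as FPKM because Cufflinks and Cuffdiff are among those tools. The authors' deposited comparison table gives q-values and log2 fold changes (written as text where a genotype is at 0) for listed loci only. The depth cannot be read from these values, hence intervals and detection limits are left out, and an exact 0 can be a failed estimate.

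Ratios were computed here as log2 of FPKM plus a pseudocount of 1, which understates changes of low loci, while folds use the values as deposited (Python 3.11.15, pandas 2.3.3, NumPy 2.4.6, matplotlib 3.10.9). With 1 value per genotype no test was run, and groups were taken from the sample titles. Selection and counting were tested on simulated data. Names, biotypes, positions and sequences come from RefSeq's TAIR10.1 by locus identifier (30555 loci named, 569 not), and none were converted from TAIR10. No protein sequences were used here.

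The 64 loci and all 27 gene lists were chosen with earlier results of these data known. Of 1217 list entries, 1057 matched a symbol uniquely, 15 were assigned by hand, 77 had no match, 37 had a shared symbol, 30 were outside the table and 1 was dropped. A matched symbol can still belong to another gene, as HB2 did. Genes were named if among the 12 largest ratios, the 12 highest in potent, in a list, at a bound, or highest in a family of at least 3 members; other names were added after values were seen. Alternatives covered the pseudocount, the low-value filters, the arf7 window, 3 scalings and overlapping loci. Reads shared with near-identical or overlapping genes leave such loci uncertain.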

Additional observations from a re-analysis of the deposited data

How the results depend on the processing

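The number of loci that met the rule was 64 as chosen. It was 166 with no minimum in potent and 35 with an arf7 window of 0.2, as a looser and a stricter rule must give, and between 56 and 64 with pseudocounts of 0.1 or 5, a minimum of 1 FPKM in control and arf7, or the 3 other scalings. Membership moved more than the number: with a pseudocount of 5, 29 of the 64 remained, and with scaling by the sum without the 100 highest loci, 46 remained. That scaling moved the arf7 column most, by -0.14 against the control on the log2 scale. The minimum of 1 FPKM in control and arf7 removed 5 loci, CYP78A5, GH3.2, AT4G23680, SWEET11 and MKK6. All but MKK6 of these had the largest potent ratios of the 64. All 3 scalings kept 42 loci, and all 9 settings kept 13, among them USPL1, NAS2, AT4, AT2G43590, AT4G19160 and AT4G28410, the 6 listed ones. The authors' deposited table lists 12 to 17 of the chosen loci as higher in potent under the alternatives run (15 as chosen) and none in arf7. The median log2 ratio of potent over arf7 was 1.81 and ran from 1.41 to 1.97. The share of upstream stretches with TGTCTC (10.9%) became 78.1% when only the core TGTC was asked for, by the shorter word. Leaving out the 18 loci that overlap another gene, an alternative chosen after seeing the data, left 46 loci, 13 of them listed. No paired analysis was possible because the files hold 1 value per genotype, and for the same reason no sample could be left out in turn. The depth is unknown, so which of the low control values lie under a detection limit cannot be said.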

Other observations

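The 23 loci that met both ratios but are listed at 0 in the control or in arf7 included RNA genes, uncharacterised protein genes and a few named protein genes. They held the snoRNAs U60.1F (111 FPKM in potent), AT5G66567 (40.4 FPKM) and AT2G20723 (39.9 FPKM) and a glycine transfer RNA (AT5G02025, 39.3 FPKM), each listed at 0 in the other genotypes. Among protein-coding loci, the mitotic cyclin gene CYCB1;3 is listed at 0 in arf7, with 0.103 FPKM in Control and 13.1 in potent. For the PLATZ family gene AT3G60670 the control value is 0, with 15.7 FPKM in potent and 0.0672 in arf7. A value of 0 can be a failed estimate, so no fold is given for these loci.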
